A study of Bos taurus with 30 samples.

Results

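The family of miR-15, miR-16, miR-195 and miR-497 was described through 8 mature microRNAs (miRNAs): bta-miR-15a, bta-miR-15b, bta-miR-16a, bta-miR-16b, bta-miR-195, bta-miR-497, bta-miR-424-5p and bta-miR-503-5p. They are 8 of the 1030 mature bovine miRNAs listed, of which 863 had a read in at least 1 calf. All 8 were among the 476 miRNAs with enough reads to be tested. The members were selected by family name, and the family was picked with a measured pattern in view, the level of miR-497 along the order of the animal codes, so that pattern is described below with no test.

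MicroRNA was sequenced in the arcuate nucleus of the hypothalamus (ARC) of 30 Holstein-Friesian bull calves, 1 library per calf. The arcuate nucleus is the hypothalamic region that senses metabolic state and acts on reproductive development, and the study asked how early feeding alters it. From 2 to 12 weeks of age, 15 HI calves (high plane of nutrition) were given 1.5 kg of milk replacer in 10 L daily with concentrate ad libitum, for an expected gain of 1.0 kg per day. The 15 MOD calves (moderate plane) were given 0.5 kg in 4 L with 0.5 kg of concentrate, for an expected gain of 0.5 kg per day.

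A miRNA guides the silencing machinery to messenger RNAs that pair with its seed, the short stretch near its 5′ end. The members of this family share, or in the case of miR-503 nearly share, a seed, and are therefore expected to reach overlapping targets. The family is best known for restraining cell division through cyclins, cyclin-dependent kinases and checkpoint kinases, and for lowering the survival protein BCL2. miR-15a and miR-16 are lost in many chronic lymphocytic leukaemias, miR-195 is known for the exit of heart muscle cells from the cell cycle after birth, and the miR-424 and miR-503 pair is known to lower the phosphatase CDC25A during differentiation.

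The RefSeq gene table of the ARS-UCD2.0 assembly placed the 8 precursors in 4 loci of 2, with less than 10 kb between the precursors of a locus. Since the authors aligned to another assembly, ARS-UCD1.2, no coordinates are printed. MIR15A (gene identifier 100170925) and MIR16A (100313007) overlapped a transcribed pseudogene, LOC100847818. MIR15B (791011) and MIR16B (790979) overlapped SMC4, which encodes a condensin subunit, and lay near IFT80. MIR195 (100170933) and MIR497 (100170934) overlapped a long non-coding RNA, LOC107131510, and lay near ALOX12, RNASEK and BCL6B. MIR424 (100498845) and MIR503 (102465287) overlapped no other listed gene and lay beside MIR450A-1, MIR450A-2, MIR450B, MIR542 and MIR3601.

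Between 6291376 and 21083250 reads per library were counted on miRNAs, with a median of 8635354. The libraries fell into a shallower class of 12 HI and 9 MOD calves, up to 8988039 reads, and a deeper class of 3 HI and 6 MOD calves, from 17193358 reads. Levels are given in CPM, counts per 1000000 reads over a scaled library size, in the deposited scaling. A floor of 3 reads was worth 0.138 to 0.558 CPM depending on the library, and floors cover counting error only. The labels give no batch or date for any calf. Per the study's methods the calves came from several farms and shared sires, for which the diets were balanced.

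Levels of the members spanned nearly 3 orders of magnitude, and both members of the miR-16 kind led the order. miR-16b lay between 1243 and 2989 CPM over the 30 calves with a median of 1590 CPM, and miR-16a between 624 and 1608 CPM with a median of 890 CPM. miR-16b was above miR-16a in all 30 calves, and miR-16a was above miR-195 in all 30. These 2 are close in sequence, and how reads that match both were shared out is not given in the sources used here.

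The middle of the order was held by 4 members, and the ranges of neighbours in the order overlapped. miR-195 lay between 358 and 668 CPM (median 474), miR-424-5p between 204 and 1033 CPM (median 301), miR-15a between 179 and 420 CPM (median 252), and miR-497 between 102 and 333 CPM (median 222). The order of neighbours here did not hold in every calf. miR-195 was above miR-424-5p in 25 of 30 calves, miR-424-5p was above miR-15a in 24, and miR-15a was above miR-497 in 23.

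The lowest members were miR-15b, between 43.1 and 104.6 CPM (median 53.5), and miR-503-5p, between 1.008 and 11.6 CPM (median 2.34). miR-497 was above miR-15b in all 30 calves. miR-503-5p rested on 9 to 185 reads per library with a median of 20, and was the only member at so few reads. All members together made up 0.283% to 0.547% of a library's reads. The related miR-103 and miR-107, which are often grouped with this family, were more abundant, miR-103 above miR-16b in all 30 calves and miR-107 above it in 27.

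The spread across calves also differed between members. The coefficient of variation was lowest for miR-195 at 15.1% and highest for miR-503-5p at 75.8%, with miR-497 at 32.2% and miR-424-5p at 52.7%. The other arms of the last locus were listed too. miR-424-5p exceeded its partner arm miR-424-3p in all 30 calves, by 11.8-fold to 25.1-fold. For the miR-503 precursor the 3p arm was the higher one in 29 of 30 calves and equal in 1, with a median ratio of 1.88 over miR-503-5p.

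**Figure D1:**
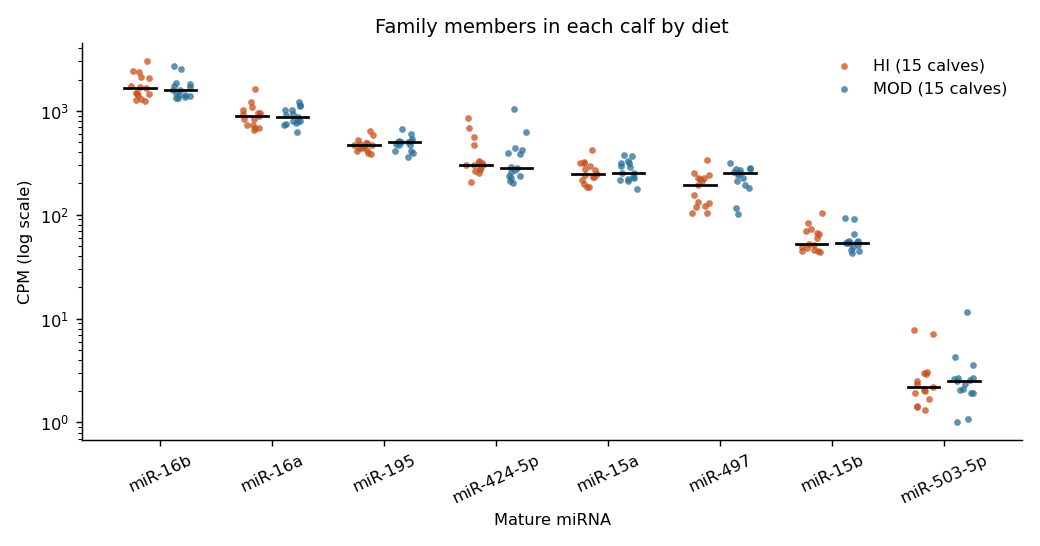
Level of each family member in CPM (y axis, log scale) in the 15 HI and 15 MOD calves (x axis), with 1 point per calf and a bar at the median of each diet. The ranges of the diets overlap for all 8 members, and for miR-497 1 of 15 HI calves lies above the MOD median of 253 CPM.

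The first comparison asked whether the plane of nutrition altered the family in the ARC. No member passed the test. At the study's thresholds, which ask for a fold change of more than 1.5 and an adjusted p of less than 0.1, limma called 0 of the 8 members and 0 of the 476 tested miRNAs (0%). At an unadjusted p under 0.05, 0 of 8 members and 21 of 476 miRNAs (4.41%) passed. edgeR's quasi-likelihood test on recovered reads called 0 miRNAs, 17 having an unadjusted p under 0.05. DESeq2 called 1, which was miR-2419-3p and no family member. The members were split evenly, 4 higher and 4 lower in the HI calves, with a median log2 difference of -0.00018 against -0.0022 over all tested miRNAs. Their adjusted p values lay between 0.912 and 0.985 (limma, Benjamini-Hochberg over 476), and the 95% intervals of their differences all lay within -0.71 to 0.54.

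The abundant miR-16b lay between 1243 and 2989 CPM in the HI calves (median 1644) and between 1326 and 2730 CPM in the MOD calves (median 1585). The diets overlapped nearly throughout, and the log2 difference of HI against MOD was 0.07 (standard error 0.127, adjusted p = 0.982, limma). Its locus partner miR-15b lay between 43.3 and 104.6 CPM in the HI calves (median 51.6) and between 43.1 and 93.6 CPM in the MOD calves (median 53.6). Its log2 difference was 0.04 (standard error 0.127, adjusted p = 0.984, limma), which changed sign when library size alone set the scale.

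For the other miR-15 and miR-16 locus the diets overlapped as broadly. miR-16a lay between 652 and 1608 CPM in the HI calves (median 900.2) and between 624 and 1214 CPM in the MOD calves (median 879), and its log2 difference was 0.02 (standard error 0.114, adjusted p = 0.985, limma). This sign too turned with library size alone. miR-15a lay between 184 and 420 CPM in the HI calves (median 244) and between 179 and 377 CPM in the MOD calves (median 252), with a log2 difference of -0.05 (standard error 0.118, adjusted p = 0.984, limma).

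miR-424-5p, which varied widely within both diets, lay between 205 and 848 CPM in the HI calves (median 303) and between 204 and 1033 CPM in the MOD calves (median 282). Its log2 difference was 0.09 (standard error 0.217, adjusted p = 0.984, limma). miR-503-5p lay between 1.31 and 7.81 CPM in the HI calves (median 2.21) and between 1.008 and 11.6 CPM in the MOD calves (median 2.48). The log2 difference of miR-503-5p was -0.02 (standard error 0.257, adjusted p = 0.985, limma). Its 95% interval, -0.54 to 0.50, was the widest of the members.

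miR-195 was the most even member. It lay between 384 and 632 CPM in the HI calves (median 466) and between 358 and 668 CPM in the MOD calves (median 496.6). The log2 difference was -0.04 (standard error 0.0806, 95% interval -0.21 to 0.12, adjusted p = 0.982, limma).

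miR-497 gave the lowest p of the 8 members. It lay between 104 and 333 CPM in the HI calves, with a median of 192 and a mean of 184 ± 66.8 CPM (SD, n = 15). Its MOD values lay between 102 and 313 CPM, with a median of 253 and a mean of 230 ± 60.2 CPM (SD, n = 15). Of the HI calves, 1 of 15 lay above the MOD median, and 12 of 15 MOD calves lay above the HI median. The log2 difference was -0.35 (standard error 0.176, 95% interval -0.71 to 0.01), with an unadjusted p of 0.0591, the 24th lowest of 476, and an adjusted p of 0.912 (limma). Permuting the diets over the calves gave p = 0.0668 for the mean log2 level (two-sided permutation test). Leaving out 1 calf in turn moved the unadjusted limma p of miR-497 between 0.015 and 0.104, and it was under 0.05 in 8 of the 30 fits, each without 1 of 6 HI or 2 MOD calves (HI replicates 8, 9, 10, 12, 14 and 15 and MOD replicates 1 and 2). The adjusted p was at least 0.482 in all 30.

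The diets were unevenly spread over the animal codes, along which miR-497 itself fell into separate ranges. In the class of the 9 lowest codes, which held 7 HI and 2 MOD calves, the HI mean was above the MOD mean by 0.18 in log2 units. Among the other 21 calves, 8 HI and 13 MOD, the difference was -0.07, and with the code class as a term in limma it was -0.0093. The class was set from values of these data, so these 3 differences are descriptions with no test. How the class was chosen and the uneven spread of the diets over it cannot be told apart here. By depth, the difference of miR-497 was -0.35 in the shallower libraries (exact permutation test, p = 0.123) and 0.04 in the deeper ones (exact permutation test, p = 0.857). All calves of the 9 lowest codes were in the shallower class, so the shallower value takes in the split along the codes.

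The ratio of the 2 members of a locus within a library, taken of CPM + 0.25, depends on the scaling of that library only through the pseudocount of 0.25. None of the 4 ratios passed the test between the diets after adjustment. The ratio of miR-16a over miR-15a ran from 2.78 to 3.91 over all calves (median 3.44), and differed by 0.07 between HI and MOD on the log2 scale (permutation test, p = 0.137, adjusted p = 0.273 over 4 ratios). The ratio of miR-16b over miR-15b ran from 24.3 to 35.04 (median 28.8) and differed by 0.03 (permutation test, p = 0.577). These 2 ratios were held within 1.41-fold and 1.44-fold over 30 calves. The ratio of miR-503-5p over miR-424-5p ran from 0.00515 to 0.0129 (median 0.00813) and differed by -0.11 (permutation test, p = 0.412, adjusted p = 0.550).

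The ratio of miR-497 over miR-195 had the lowest p of the 4. It ran from 0.256 to 0.575 in the HI calves (median 0.396) and from 0.282 to 0.597 in the MOD calves (median 0.503). The log2 difference was -0.30 (permutation test, p = 0.0386), and the adjusted p over the 4 ratios was 0.154. Within the 9 lowest codes it was -0.03 and within the other calves -0.05. These are given with no test, since the ratio takes in the level of miR-497 that set the code classes apart.

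**Figure D2:**
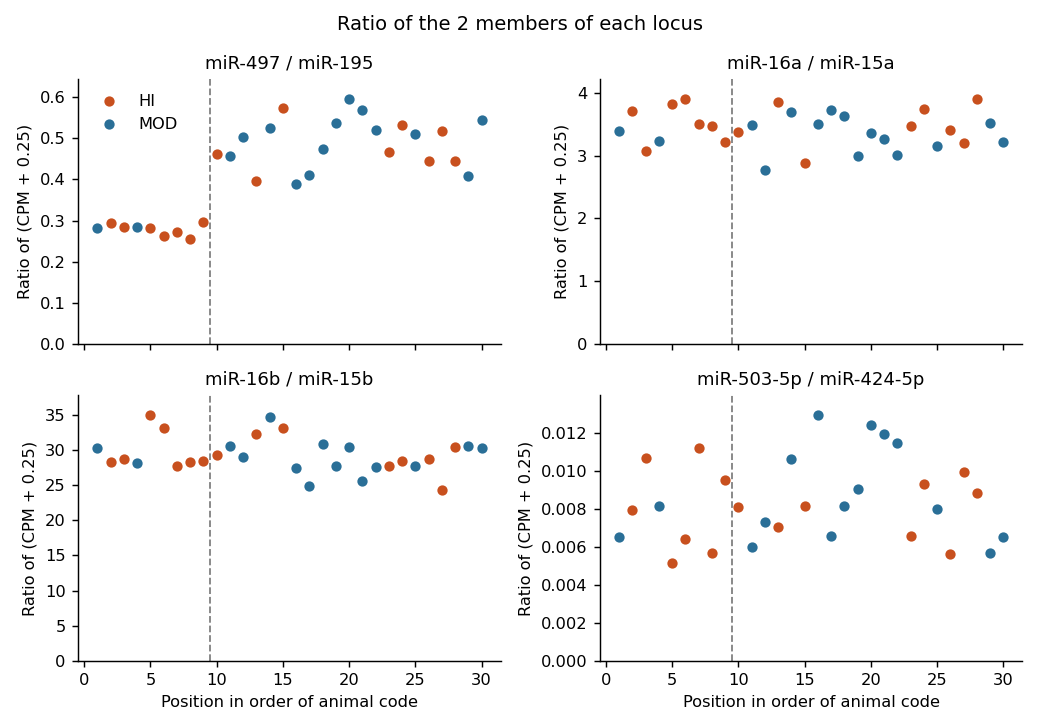
Ratio of the 2 members of each locus, of CPM + 0.25 (y axis, linear scale from 0), against the rank of the animal code (x axis), 1 point per calf, coloured by diet, with a dashed line after the 9 lowest codes. The ratio of miR-497 over miR-195 steps from at most 0.297 in the 9 lowest codes to at least 0.390 in the others, while the remaining ratios overlap across that boundary.

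Along the order of the animal codes, miR-497 fell into separate ranges. In the 9 calves with the lowest codes it lay between 102 and 156 CPM with a median of 119 CPM. In the other 21 calves it lay between 181 and 333 CPM with a median of 242 CPM. The ranges did not overlap, and the ratio of the medians was 2.03. The boundary came from an earlier look at these same data, so the split is a description and carries no test. At it, the calf A37824 just inside had 156 CPM and the calf A37840 just outside had 227 CPM.

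The split is set out here by diet, which adds no support to it, since ranges that do not overlap over all calves cannot overlap in a part of them. The 2 MOD calves among the lowest codes had 102 and 115 CPM, below the lowest of the 13 other MOD calves at 181 CPM. The 7 HI calves among them lay between 104 and 156 CPM, below the lowest of the 8 other HI calves at 192 CPM. All 9 were shallower libraries, of 7692951 to 8988039 reads. The other 12 shallower libraries lay between 181 and 275 CPM of miR-497. The codes are identifiers whose meaning the labels do not give, and the farm and sire of each calf were not used here, so what sets these calves apart was not tested.

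At the same boundary 5 of 476 tested miRNAs (1.05%) were lower in the 9 calves with no overlap, and 7 (1.47%) were separate in either direction. The others, which were named after their values were seen, were miR-342, miR-188, miR-494 and miR-193a-3p among the lower and miR-409a and miR-1271 among the higher. By the size of the log2 ratio of medians, miR-497 was 17th of 476.

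Of the 8 members, only miR-497 was separate along the codes in the deposited scaling. Its locus partner miR-195 lay between 358 and 526 CPM in the 9 calves (median 423) and between 396 and 668 CPM in the others (median 494). That is a ratio of medians of 1.17, with ranges that overlap. When library size alone set the scale, miR-195 was separate as well, as 1 of 6 miRNAs (1.26%) lower in the 9 calves, and miR-497 stayed separate. The ratio of miR-497 over miR-195 within each library, which scaling hardly alters, was 0.256 to 0.297 in the 9 calves (median 0.282) and 0.390 to 0.597 in the others (median 0.503).

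The remaining members overlapped along the codes under both scalings. The ratios of the medians of the other calves over the 9 lowest codes were 0.874 for miR-16a, 0.886 for miR-16b, 0.883 for miR-15a and 0.893 for miR-15b. For miR-424-5p the ratio was 0.999 and for miR-503-5p it was 1.21. With library size alone as the scale the same ratios were 1.14, 1.09, 1.18 and 1.06 for the miR-16 and miR-15 members in that order, so their direction turned with the scaling. They were then 1.24 for miR-424-5p, 1.38 for miR-503-5p, 1.40 for miR-195 and 2.48 for miR-497.

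**Figure D3:**
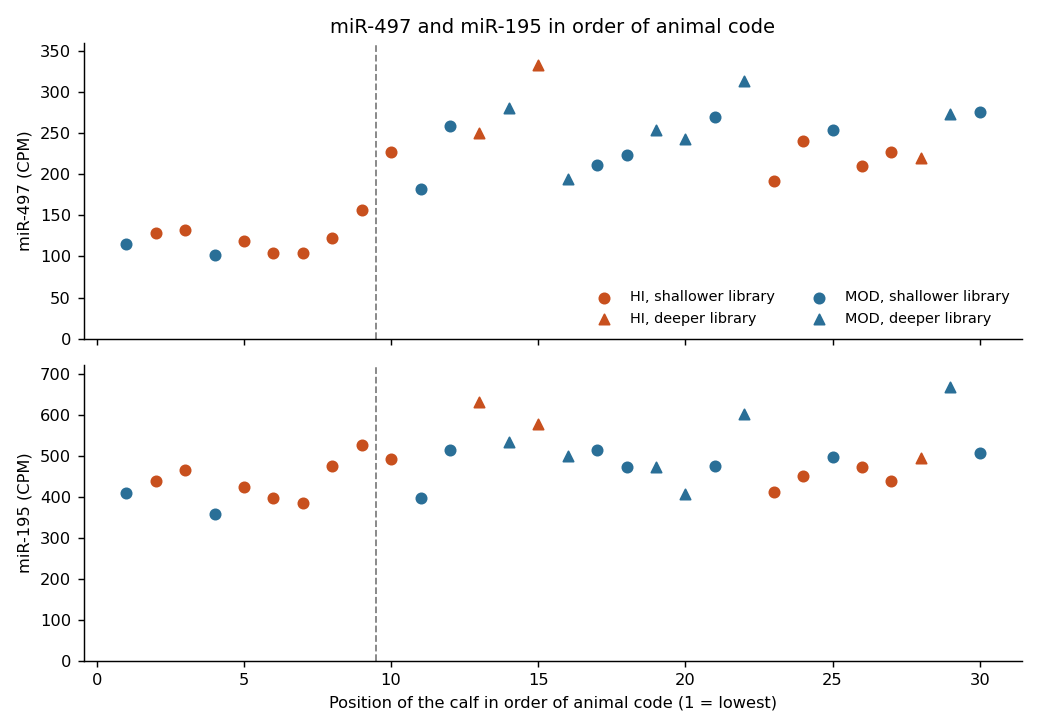
Level in CPM (y axis, linear scale from 0) of miR-497 and of its locus partner miR-195 against the rank of the animal code (x axis), 1 point per calf, coloured by diet, with circles for shallower and triangles for deeper libraries and a dashed line after the 9 lowest codes. miR-497 steps from 102 to 156 CPM up to 181 to 333 CPM at the boundary, and miR-195 overlaps across it.

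Marker miRNAs of other cell types were set beside this split. Of 32 markers on 7 lists, 29 were tested, and 0 of 29 were separate along the codes, against 7 of all 476 (1.47%), a share at which a count of 0 is not particular to them. The summed level of the endothelial list (miR-126 arms) was 17514 to 27576 CPM in the 9 calves and 12707 to 25019 CPM in the others. That of mural cells and fibroblasts (miR-143, miR-145, miR-199a arms and miR-214) was 88519 to 241261 CPM against 34773 to 316635 CPM. That of the pituitary and epithelial list (miR-375, the miR-200 group and the miR-183 group) was 356 to 91145 CPM against 157 to 77148 CPM. All 3 overlapped, as did the others. The median ratio of the other calves over the 9 lowest codes, with no test, was 0.317 on the pituitary and epithelial list and 0.643 on that of mural cells and fibroblasts, where miR-145 went the other way at 1.28. It was 1.0005 on the endothelial, 0.921 on the erythroid, 1.09 on the leukocyte, 1.16 on the neuronal and 0.888 on the oligodendrocyte list. The endothelial value lies between 2 markers that went opposite ways, miR-126-3p at 1.16 and miR-126-5p at 0.838. The oligodendrocyte value rests on 1 tested marker, miR-338. Single markers within a list differed, as with miR-138 at 1.96 and miR-9-5p at 0.810 among the neuronal and miR-150 at 1.88 and miR-223 at 0.890 among the leukocyte markers, which were picked after their values were seen.

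The neuronal list summed to 15043 to 87561 CPM in the 9 calves and 22755 to 82397 CPM in the others, and that of oligodendrocytes to 1198 to 10420 CPM against 1700 to 5180 CPM. Erythroid markers summed to 21182 to 39732 CPM against 23713 to 40320 CPM. Leukocyte markers summed to 1190 to 2047 CPM against 1190 to 2325 CPM. The lowest neuronal sum was thus 15043 CPM, but that sum is carried largely by miR-9-5p, which was at 11292 CPM or more. Other neuronal markers fell lower, miR-124a to 826 CPM and miR-137 to 149 CPM. Only on the pituitary and epithelial list, for 2 of 9 markers, was any library at 0 reads. In whole tissue, fewer cells of a type and less of a miRNA per cell cannot be told apart, and the part of cell makeup in the split of miR-497 was not tested.

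Across the 30 calves the members tended to vary together, and the 2 closest pairs were locus partners. All 28 pairs had a positive Pearson's r of log2 levels, and 21 had an adjusted p under 0.05 (permutation test, Benjamini-Hochberg over 28), or 20 by Spearman's rho. The share over pairs of all tested miRNAs was not computed, so these counts are not read as a trait of the family. Some miRNAs outside the family lay as close to a member, as miR-151-5p to miR-16b and miR-199b to miR-15b (both r = 0.92). miR-15b and miR-16b had r = 0.94 and rho = 0.88, and miR-15a and miR-16a had r = 0.92 and rho = 0.92. For both, the permutation p was 1e-05, the smallest that the resamples can give. miR-424-5p and miR-503-5p had r = 0.85 and rho = 0.63, and miR-195 and miR-497 had r = 0.69 and rho = 0.71. For the 4 locus pairs r was 0.702 to 0.898 once the 2 calves farthest from the median were left out.

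The number of pairs depended on the scaling, with 9 of 28 left when library size alone set the scale. In the deposited scaling 14 of 28 had an adjusted p under 0.05 without the 5 calves with the highest miR-375, which are described further on. These include 1 pair that was not among the 21, miR-497 with miR-503-5p (r = 0.50, permutation test, adjusted p = 0.0253). The 9 under library size were the 4 locus pairs, with r of 0.816 to 0.903 (permutation test, adjusted p = 4.67e-05), miR-15a with miR-16b, and miR-15b and miR-16b each with miR-424-5p and miR-503-5p. The pair of miR-16a and miR-503-5p then had r = -0.09. Within classes, in the deposited scaling, r of the locus pairs was 0.904 to 0.962 in the 9 lowest codes and 0.639 to 0.909 in the other calves, and 0.660 to 0.947 in the shallower and 0.482 to 0.920 in the deeper libraries. With library size alone, miR-195 and miR-497 had r = 0.90 over all calves, but 0.59 within the 9 lowest codes and 0.47 within the others.

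In the deposited scaling, r of miR-497 with the 6 members of other loci was 0.018 to 0.247 over all 30 calves (permutation test, adjusted p = 0.241 to 0.925). Without the 5 calves of highest miR-375 it ran from -0.038 with miR-16a to 0.499 with miR-503-5p. With library size alone, over all 30 calves, it was 0.162 to 0.412, against 0.124 to 0.345 for miR-195, so that miR-497 was not set apart from its partner there. The 2 ranges of miR-497 along the codes make these pooled values hard to read. In the deposited scaling, within the 9 lowest codes r was 0.267 to 0.835, and within the other 21 calves 0.473 to 0.781. With the mean of each code class removed, r was 0.529 to 0.689. These values carry no test, because the classes were set from these data and follow the split of miR-497. With library size alone they were lower, with r of -0.228 to 0.423 in the 9 lowest codes and 0.019 to 0.485 in the others.

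**Figure D4:**
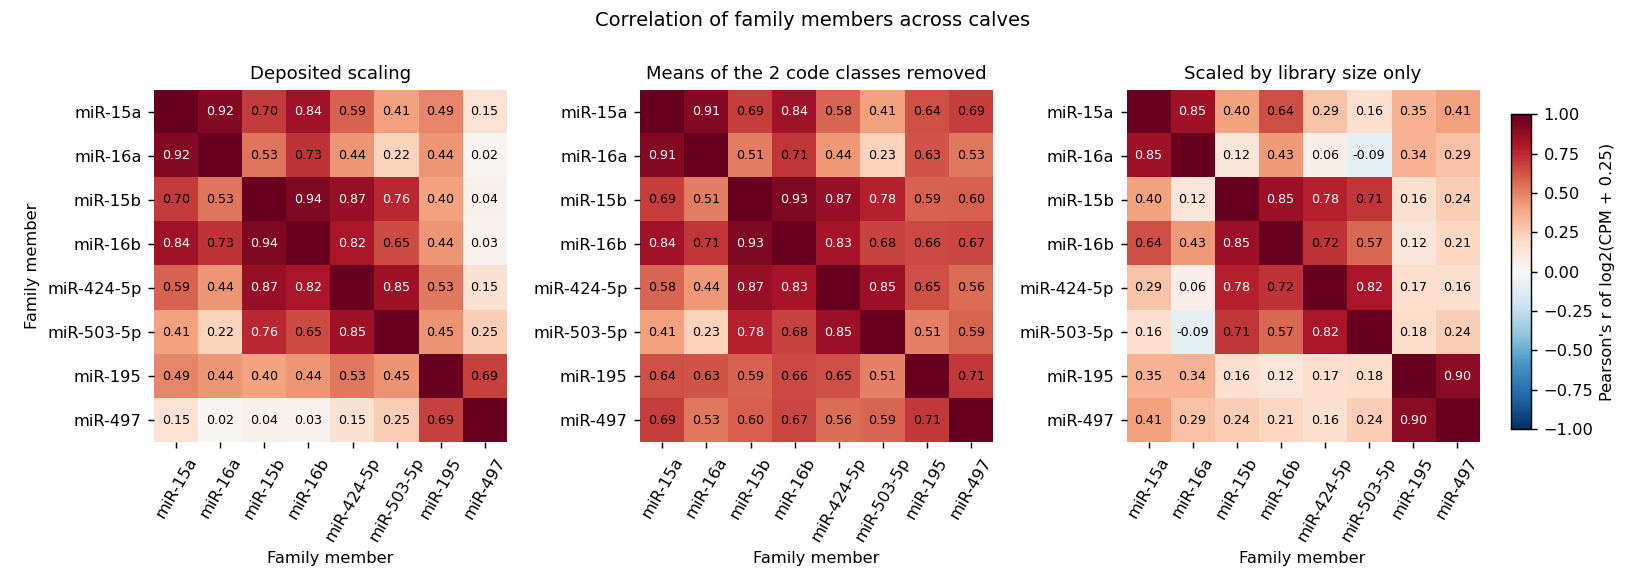
Pearson's r of log2(CPM + 0.25) for each pair of members over 30 calves (colour scale from -1 to 1, value in each cell), in the deposited scaling, after the means of the 2 code classes were removed, and with library size alone as the scale. The row of miR-497 is pale in the first panel except for miR-195 and darkens in the second, where the removed classes follow its own split, and in the third the pairs of a locus stay dark.

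The high end of several members was held largely by the same calves. Levels of miR-375, an abundant miRNA of endocrine cells and of the pituitary, set 5 calves apart at 20624 to 47575 CPM, against at most 6845 CPM in the other 25. They were 3 HI and 2 MOD calves, and the 3 HI calves were among the 9 lowest codes. For 43 of the 475 other tested miRNAs (9.05%) these 5 calves also held the 5 highest values. This grouping was made on a measured value and is given as a description.

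In the deposited scaling, miR-15b and miR-424-5p were of that kind among the 8 members. miR-15b was 72.2 to 104.6 CPM in the 5 calves and at most 69.1 CPM in the others, and miR-424-5p was 553 to 1033 CPM against at most 473 CPM. The partner arms miR-424-3p and miR-503-3p behaved alike, at 31.5 to 56.2 CPM against at most 23.9 CPM and at 7.88 to 15.985 CPM against at most 5.76 CPM. Of the 5 highest values of miR-16b and of miR-503-5p, 4 were in these calves. With library size alone as the scale, added after the data were seen, the miRNAs of that kind were 21 of 475 (4.42%) and none of the 8 members was among them. miR-15b and miR-424-5p then had 4 of their 5 highest values in these calves, miR-16b and miR-503-5p had 3, and of the arms only miR-424-3p still had all 5.

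The other members did not single these calves out. In the deposited scaling, 2 of the 5 highest values were in them for miR-15a and 1 each for miR-16a, miR-195 and miR-497. miR-497 was at 122 to 156 CPM in the 3 of them with low codes and at 258 and 313 CPM in the other pair. Without the 5 calves, r of the locus pairs was 0.496 to 0.933 (permutation test, adjusted p = 9.33e-05 to 0.0253). The lowest of these was that of miR-424-5p with miR-503-5p, at 0.50 against 0.85 with the 5 calves in, and miR-16b with miR-503-5p fell from 0.65 to 0.18.

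**Figure D5:**
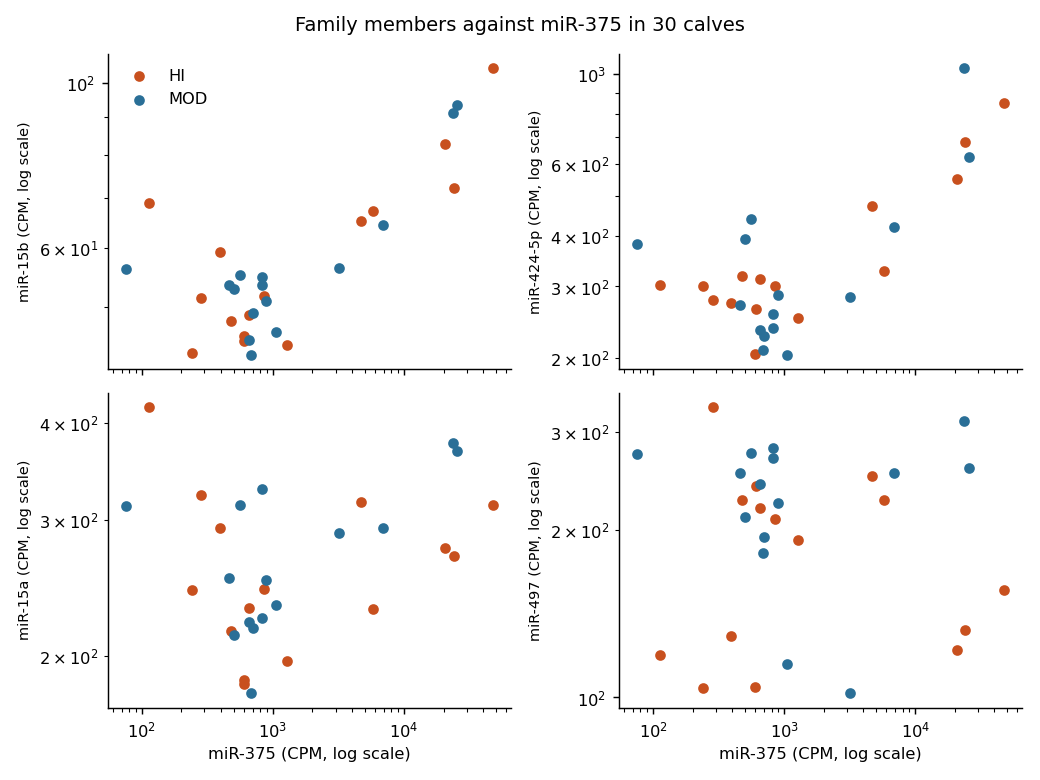
Level of miR-15b, miR-424-5p, miR-15a and miR-497 in CPM (y axis) against miR-375 in CPM (x axis), log scales, 1 point per calf, coloured by diet. The 5 calves at 20624 CPM or more of miR-375 hold the 5 highest values of miR-15b and miR-424-5p in the deposited scaling, though not with library size alone, while miR-15a and miR-497 in these calves lie within the range of the others.

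In the deposited scaling, the tested miRNAs most like each member, by Pearson's r over 30 calves, were other members or partner arms in 12 of 24 places. These places are the 3 nearest of each of the 8 members. Both miR-424-5p and miR-503-5p had such miRNAs in all 3 of their places, and miR-497 in 0. No share for other miRNAs was computed beside this count, and it was not taken with library size alone. For miR-15b they were miR-16b (0.94), miR-199b (0.92) and miR-23a (0.92). For miR-16b they were miR-15b (0.94), miR-151-5p (0.92) and miR-31 (0.89). For miR-424-5p they were miR-424-3p (0.91), miR-503-3p (0.87) and miR-15b (0.87), and for miR-503-5p they were miR-424-5p (0.85), miR-503-3p (0.82) and miR-424-3p (0.80). The listed neighbours of the miR-424 locus, looked up after values were seen, had r with miR-424-5p of 0.84 for miR-450a, 0.75 for miR-450b and 0.86 for miR-542-5p.

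For miR-195 the nearest were miR-30f (0.69), miR-497 (0.69) and miR-455-3p (0.66). For miR-497 they lay outside the family, namely miR-188 (0.82), miR-342 (0.81) and miR-30c (0.77). The first 2 of these are separate along the codes as miR-497 is, and their r with it was -0.27 and -0.26 within the 9 lowest codes and -0.06 and -0.07 within the other calves. For miR-30c it was 0.38 and 0.43.

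Other miRNAs known for effects on cell growth were read in the same fit of the diets. Of 18 tested miRNAs that restrain growth, the let-7, miR-34, miR-26 and miR-29 groups, 0 were called, 11 being higher and 7 lower in the HI calves. At an unadjusted p under 0.05, 2 of the 18 passed beside 21 of all 476 (4.41%), namely miR-29a at -0.15 (p = 0.0213, adjusted p = 0.912, limma) and miR-29c at -0.19 (p = 0.0267, adjusted p = 0.912, limma), named after their values were seen. The largest differences were 0.10 for let-7i (adjusted p = 0.982, limma) and -0.51 for miR-34b (adjusted p = 0.982, limma). Of 12 tested miRNAs that promote growth, the miR-17-92 group and its relatives with miR-21-5p, 0 were called and 0 had an unadjusted p under 0.05, 5 being higher and 7 lower. Their largest differences were 0.07 for miR-25 and -0.15 for miR-106a.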

How the data were processed

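Small RNA was sequenced by the authors from the ARC of 30 bull calves, 15 per diet, as the labels give them. The authors trimmed adapters (the labels list FastQC 0.11.8, cutadapt 2.6, R 3.4 and edgeR 3.5), removed other short RNAs and ran miRDeep2 with known bovine miRNAs against ARS-UCD1.2. The deposited signal values, named counts by the authors, are decimals of the CPM form: column totals run from 825695 to 1429908, and TMM factors recomputed here matched those implied within 0.576%. All other steps were made for this report. Members, lists and code classes were chosen with earlier results of these data known.

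The read worth of each library was recovered from the step between low values. By it, 94.5% to 97.9% of values under 200 reads were whole within 0.02 of a read. Count tests used 29 libraries, leaving out that of calf A31979, whose values a separate check of steps did not accept as whole reads. By the step used here that library was at 95.5%, above the lowest library kept, at 94.5%. limma 3.58.1 (R 4.3.3, trend) was fitted on log2(CPM + 0.25) for the 476 miRNAs passing filterByExpr of edgeR 4.0.16, without covariates, with Benjamini-Hochberg adjustment. Fold changes on this scale understate those of low miRNAs. For single values, permutation tests were two-sided with 100000 resamples, and exact within classes (scipy 1.17.1). Calves shared farms and sires per the study's methods. Which calf had which is not given in the labels, so the tests take calves as independent. DESeq2 1.42.0, other scalings, pseudocounts, filters, class terms and leaving out each calf were alternatives. Named miRNAs are the members, miR-103 and miR-107, partner arms, the 3 miRNAs of highest r for 6 members and the extremes of 2 growth lists. The others were named after their values were seen: miR-2419-3p, miR-375, those separate along the codes, single markers, miR-29a, miR-29c and the neighbours of the miR-424 locus. A search for further miRNAs by seed was set but not run, since mature sequences were not used here. The code was tested on simulated data.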

Additional observations from a re-analysis of the deposited data

How the results depend on the processing

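With 15 calves a diet the 95% intervals of the members reach as far as -0.71 and 0.54 on the log2 scale, and miR-503-5p is limited further by its few reads. No family member was called under any alternative. The differences of miR-497, miR-15a, miR-16b and miR-424-5p did not change sign in the alternatives fitted over all classes of calves together. They came close to 0 there, at -0.0093, -0.014, 0.0032 and 0.00063 at the nearest. Within single code classes the sign of each of them did turn, which is given with no test. In the 9 lowest codes miR-497 was at 0.18 and miR-15a at 0.10. In the other calves miR-16b was at -0.12 and miR-424-5p at -0.15. Among all tested miRNAs, DESeq2 on 29 libraries called 1, and leaving out 1 calf called 0 to 1 (miR-2419-3p, without HI replicate 11 or MOD replicate 15). The signs of differences near 0 turned. With library size alone, miR-15b was at -0.0018 and miR-16a at -0.023. With a term for code class, miR-15b was at -0.014, miR-16a at -0.032 and miR-195 at 0.032. A term for the pituitary list gave -0.016 for miR-15b. A term for depth gave 0.0073 for miR-195 and 0.060 for miR-503-5p. Leaving out 1 calf gave -0.020 to 0.093 for miR-15b, -0.041 to 0.053 for miR-16a and -0.13 to 0.13 for miR-503-5p. The ratio of miR-503-5p over miR-424-5p was 0.043 within the shallower libraries and 0.091 within the 9 lowest codes. In the deposited scaling 21 pairs of members had an adjusted p under 0.05 (permutation test). That count was 9 with library size alone, 14 without the 5 calves of highest miR-375 and 18 with the means of the depth classes removed. The 14 include miR-497 with miR-503-5p, which was not among the 21. With the means of the code classes removed no count is given, because those classes follow the split of miR-497. The count of miRNAs with all 5 highest values in the calves of highest miR-375 was 43, and 21 with library size alone. The cause was not tested in any of these. No paired analysis was possible because each calf received 1 diet and the labels give no number shared by calves of both.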
